A study of Homo sapiens with 12 samples.

Results

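The comparison described here is TUSC3 knockout (KO) against control A549 cells when both had been given tunicamycin (TM). A549 is an established human lung adenocarcinoma cell line. The comparison took in every gene with a single symbol on the array, read from its brightest feature, which gave 22411 genes on 6 of the 12 arrays of the study. The control cells were wild-type A549 cells. The TUSC3 KO cells came from A549 cells transfected with a CRISPR knockout plasmid and sorted as single GFP-positive cells, so that they are 1 clone, and what belongs to the clone and what belongs to the knockout cannot be told apart. All cells grew in RPMI medium with FBS and received either 3 ug/ml TM or its solvent DMSO for 16 h, which made 4 groups of 3 arrays. RNA was read on the GeneChip Human Transcriptome Array 2.0, and every value below is a log2 level made with RMA, a method that corrects background, normalizes arrays to each other and gives 1 level per transcript cluster. The study's methods speak in general of independent biological replicates but do not say of the 3 arrays of a group that they came from separate cultures, so p-values measure only how far these samples spread, and that spread may be technical.

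TUSC3 is a subunit of the oligosaccharyltransferase (OST), the enzyme of the endoplasmic reticulum (ER) that moves a preassembled sugar chain onto asparagines of new proteins, and it acts as an oxidoreductase beside the catalytic subunit STT3B, a place that MAGT1 can also take. TM blocks the first step in building that sugar chain, so that proteins enter the ER without N-glycans, misfold and set off the unfolded protein response (UPR). The UPR runs through the sensors IRE1 (ERN1), PERK (EIF2AK3) and ATF6, which slow translation and the cell cycle and switch on chaperones, transport and ER-associated degradation (ERAD).

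TUSC3 itself read 6.90, 6.93 and 7.002 on the control arrays and 5.50, 5.53 and 5.78 on the TUSC3 KO arrays under TM. The groups did not overlap, and the knockout array that read highest stayed more than 1 unit below every control array. The difference was -1.34 on the log2 scale (SE 0.065, adjusted p = 9.65e-08), a level 2.53-fold lower. None of the 10 tested genes that lie nearest to TUSC3 was called under TM, and the largest difference among them was -0.14 for ZDHHC2 (adjusted p = 0.0695). Under DMSO, ZDHHC2 was called lower (-0.34) and DLC1, another of these genes, was called higher (0.22). Of markers of other cell types, 0 of 9 fibroblast markers and 0 of 9 endothelial markers were called. Of 9 blood cell markers, LYZ was called higher, with means of 3.68 and 4.68 that both lay below the median of all features (4.77), while PTPRC read 2.52 and 2.52. Of 12 genes that mark A549 cells, KRT8, KRT18, NQO1, ALDH1A1, AKR1B10, AKR1C1 and ALDH3A1 were not called, CDH1, EPCAM, KRT19 and CPS1 were higher and KRT7 was lower. A list of 10 genes of the Y chromosome gave 9 that were lower in the TUSC3 KO clone under TM. RPS4Y1, a ribosomal protein gene, read 6.92, 6.90 and 6.98 on the control arrays against 4.98, 4.93 and 5.03 on the knockout arrays. Within a group, any pair of arrays correlated at 0.996 to 0.999 across genes, which are not independent replicates. The TUSC3 KO arrays under TM had the largest spread, with a median SD over genes of 0.0741 against 0.0469 for the control arrays under TM.

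Of the 22411 genes, 2015 (8.99%) were higher and 1786 (7.97%) were lower when TUSC3 KO cells were set against control cells, both under TM. A gene was called higher or lower at an adjusted p under 0.05 from limma's moderated test, with 1 spread per gene estimated over all 12 arrays. Most differences were small. The median difference was 0.27 among genes called higher and -0.23 among genes called lower, and 79 and 27 genes passed a 2-fold difference. The median of all genes was -0.02. The 3 knockout arrays lay wholly above or wholly below the 3 control arrays for 6439 genes (28.7%), and for all 79 and all 27 of the genes beyond 2-fold. With 3 arrays against 3, an exact permutation test cannot go below a two-sided p of 0.1. The median level of all features on these arrays was 4.77. Where the mean of a group lay below it, the difference is given as a lower bound, which held for the dimmer group of 21 of the 79 and 13 of the 27 genes.

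**Figure D1:**
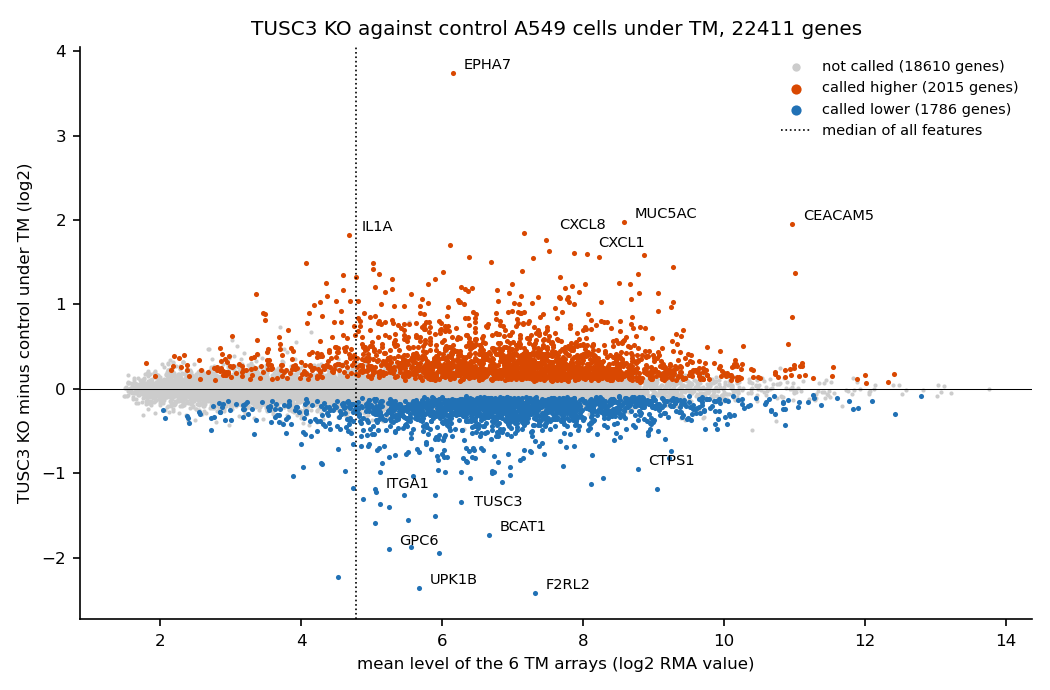
Each point is 1 of 22411 genes, with its mean log2 level over the 6 TM arrays on the x axis and the log2 difference of TUSC3 KO and control cells under TM on the y axis. The 2015 genes called higher and 1786 called lower are coloured, and the dotted line marks the median of all features, 4.77. Named points include EPHA7, at least 3.74 higher, and F2RL2, at -2.42.

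The largest rise belonged to EPHA7, an ephrin receptor tyrosine kinase that guides contact between cells. It read 4.35, 4.21 and 4.28 on the control arrays and 7.98, 7.93 and 8.16 on the TUSC3 KO arrays. The control values lay at the dim end of the array and every knockout value lay over 3 units above them. The difference was at least 3.74 on the log2 scale (SE 0.073, adjusted p = 2.97e-10). Several mucins and other genes of airway secretion were among the larger rises too. MUC5AC, a gel-forming mucin of airway goblet cells, read 7.53, 7.60 and 7.65 in control and 9.55, 9.55 and 9.62 in TUSC3 KO cells. All knockout arrays stood apart from all control arrays, with a difference of 1.98 on the log2 scale (SE 0.055, adjusted p = 1.78e-09), or 3.95-fold. MUC5B, the other large gel-forming mucin of the airways, read 7.42, 7.41 and 7.50 in control and 8.97, 9.06 and 9.01 in TUSC3 KO cells, again without overlap. Its difference was 1.57 on the log2 scale (SE 0.052, adjusted p = 3.89e-09), or 2.96-fold. MUC13, a mucin that stays anchored in the cell membrane, read 6.65, 6.63 and 6.81 against 8.32, 8.29 and 8.36. The knockout values were all higher, by 1.63 on the log2 scale (SE 0.050, adjusted p = 2.83e-09).

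The same list of secretory genes held 3 members of the carcinoembryonic antigen family, cell surface adhesion molecules that carry many N-glycans, and all 3 were higher. CEACAM5 was bright on every array, at 10.01, 9.90 and 10.06 in control cells and 12.01, 11.88 and 11.94 in TUSC3 KO cells. The groups lay far apart relative to their spread, and the difference was 1.95 on the log2 scale (SE 0.041, adjusted p = 3.46e-10), or 3.87-fold. CEACAM6 was 1.37 and CEACAM1 was 1.14 higher, with control means of 10.32 and 6.38. AGR2, an ER disulfide isomerase needed to make mucins, was 0.92 higher. SPDEF, a transcription factor of goblet cells, was 0.64 higher and LCN2, an iron-scavenging lipocalin, was 0.49 higher. The trefoil peptide TFF1 was 0.60 higher under TM, whereas under DMSO it was lower (-0.46), and the interaction of knockout and TM was 1.06 (adjusted p = 8.71e-04). SLPI, a protease inhibitor of airway secretions, read 8.49, 8.50 and 8.46 in control and 9.62, 9.67 and 9.60 in TUSC3 KO cells. Every knockout array lay more than 1 unit above every control array, with a difference of 1.14 on the log2 scale (SE 0.033, adjusted p = 2.17e-09).

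Over the list of 32 mucins and airway secretory genes, 13 were higher and 0 lower under TM, beside 8.99% and 7.97% of all genes. The other 19 members were not called, and the median difference over the list was 0.04. The same list had 10 higher and 3 lower under DMSO, where 6.58% of all genes were higher and 6.11% lower. The interaction asks whether the knockout difference under TM departs from that under DMSO, and over all genes it was called higher for 4.18% and lower for 3.73%. It was called higher for 11 and lower for 0 of the 32. The mean level over the list was 6.15 ± 0.04 (SD, n = 3 arrays) in control and 6.54 ± 0.05 in TUSC3 KO cells under TM, and no array of either group crossed into the other. Under DMSO the means were 6.36 and 6.50.

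**Figure D2:**
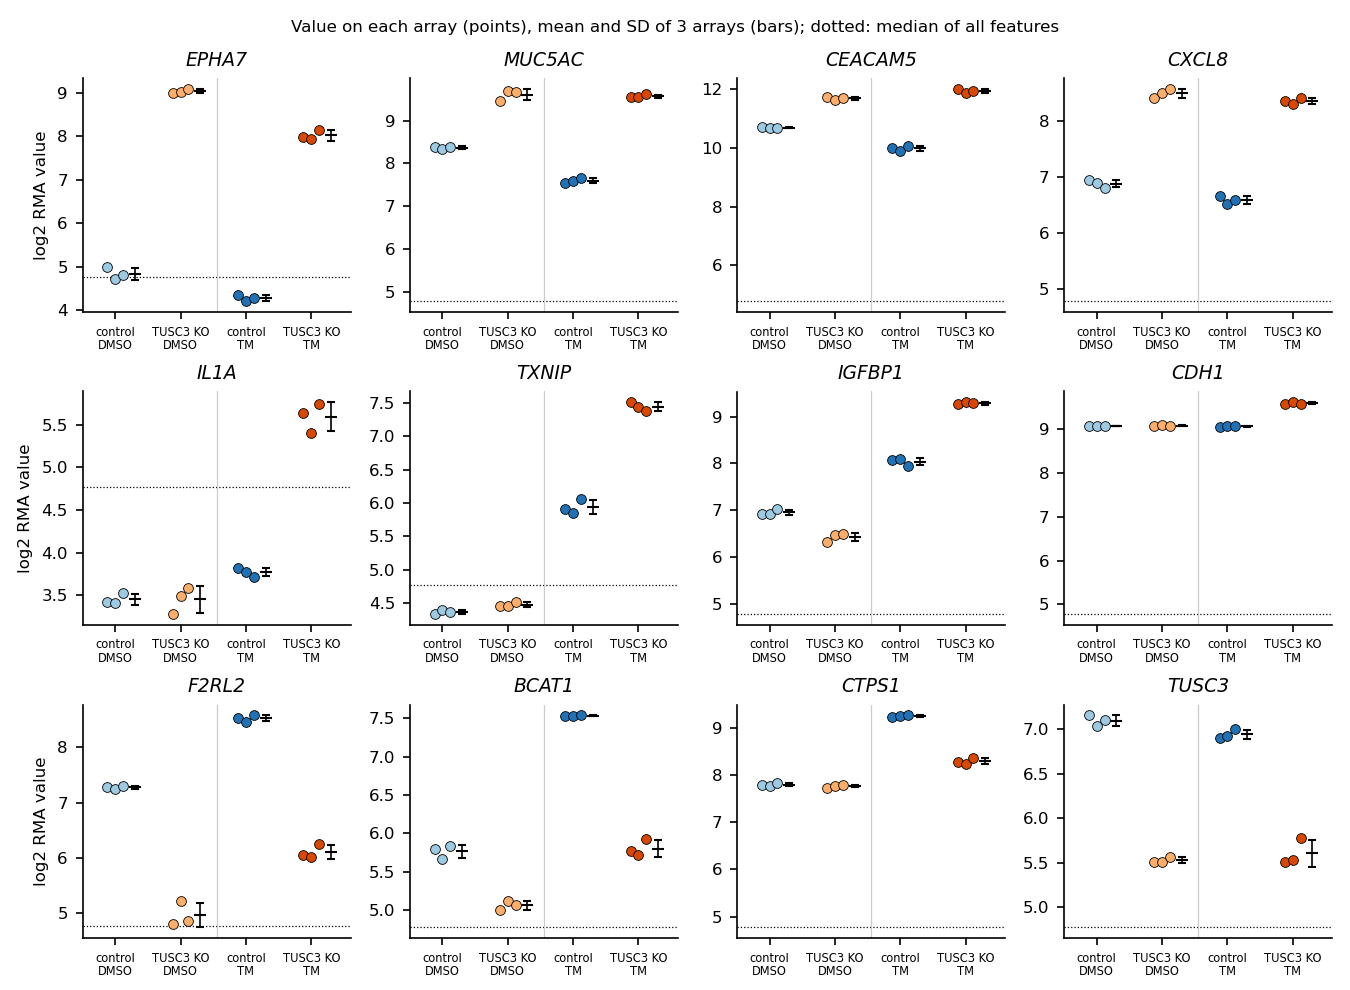
Log2 RMA level (y axis) on each of the 12 arrays for 12 genes, in the 4 groups of control and TUSC3 KO cells under DMSO or TM, with points for arrays and bars for the mean and SD of 3 arrays. The dotted line is the median of all features. MUC5AC and CEACAM5 lie higher in TUSC3 KO cells under both treatments, while IL1A and TXNIP part from control cells under TM.

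Part of the genes of epithelial cell contacts and of their regulators were higher as well. EHF, a transcription factor of differentiated epithelium, read 5.32, 5.19 and 5.26 in control and 6.93, 6.98 and 6.98 in TUSC3 KO cells. The knockout values lay within 0.1 of each other and far above the control values, with a difference of 1.71 on the log2 scale (SE 0.040, adjusted p = 3.46e-10). ESRP1, a splicing factor that sets the epithelial pattern of splicing, read 6.62, 6.66 and 6.74 against 7.59, 7.42 and 7.70. Its groups did not overlap and the difference was 0.90 on the log2 scale (SE 0.069, adjusted p = 3.48e-06). JUP, the plakoglobin that ties desmosomes and adherens junctions to the cytoskeleton, read 8.34, 8.28 and 8.26 in control and 9.02, 9.16 and 9.02 in TUSC3 KO cells, a difference of 0.77 on the log2 scale (SE 0.042, adjusted p = 2.26e-07). The E-cadherin gene CDH1, the core of adherens junctions, gave nearly the same value on every array of a group, with 9.06, 9.07 and 9.07 in control and 9.59, 9.62 and 9.59 in TUSC3 KO cells. That difference was 0.53 on the log2 scale (SE 0.021, adjusted p = 1.34e-08), beside 0.00 under DMSO. The desmosomal genes PKP2, DSG2, DSP and DSC2 were 0.64, 0.50, 0.44 and 0.41 higher. Of 35 epithelial junction genes, a list that also holds regulators such as EHF, 14 were higher and 0 lower under TM (median 0.08). Under DMSO 8 were higher and 0 lower.

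Mesenchymal genes leaned the other way, with 3 higher and 8 lower of 24 (median -0.06). The lower ones included LOXL2, a collagen cross-linking oxidase (-0.47), CDH11 (-0.35), the fibronectin gene FN1 (-0.26), the repressor of epithelial genes ZEB1 (-0.25), the receptor kinase AXL (-0.22) and vimentin, VIM (-0.21). The 3 that were higher were NT5E, an ectoenzyme that makes adenosine, S100A4 and the N-cadherin gene CDH2. NT5E read 7.22, 7.19 and 7.31 in control and 8.35, 8.23 and 8.34 in TUSC3 KO cells. Its knockout arrays all lay above its control arrays, with a difference of 1.06 on the log2 scale (SE 0.043, adjusted p = 2.14e-08).

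Genes of the matrix and of its receptors split by member. Of 35 matrix and basement membrane genes, 9 were higher and 10 lower under TM. NID2, a basement membrane linker, read 6.57, 6.48 and 6.48 in control and 8.03, 8.03 and 8.11 in TUSC3 KO cells, and TNC, a matrix protein of wounds and tumours, read 5.22, 5.17 and 5.13 against 6.16, 6.24 and 6.31. Both were separated without overlap, with differences of 1.55 (SE 0.047) and 1.06 (SE 0.055). The type IV collagen genes, whose products form the basement membrane sheet, went in pairs that lie side by side in the genome. COL4A5 and COL4A6 were 0.75 and 0.61 higher, whereas the differences of COL4A1 and COL4A2 were -0.48 and -0.50. Of 20 integrins, the cell's matrix receptors, 7 were higher and 3 lower. ITGB4, the hemidesmosome integrin that binds laminin, read 8.46, 8.45 and 8.38 in control and 9.13, 9.24 and 9.14 in TUSC3 KO cells, a difference of 0.74 on the log2 scale (SE 0.041, adjusted p = 2.67e-07), and its partner ITGA6 was 0.38 higher. ITGA1, a collagen receptor, read 5.60, 5.71 and 5.70 in control cells and 4.40, 4.52 and 4.40 in TUSC3 KO cells, where it lay below the median of all features. It was lower by at least the measured -1.23 on the log2 scale (SE 0.062, adjusted p = 1.32e-07).

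Proteases and their inhibitors gave 14 higher and 2 lower of 39 under TM. The lower genes were CTSV (-0.31) and ADAMTS1, which lay below the median of all features in both groups, and the 2 became 1 without control replicate 1 or knockout replicate 1 or 3 under TM. The urokinase gene PLAU, whose product cuts plasminogen, read 7.73, 7.73 and 7.73 in control and 8.33, 8.35 and 8.33 in TUSC3 KO cells, the arrays of a group differing by no more than 0.02. The difference was 0.61 on the log2 scale (SE 0.026, adjusted p = 2.78e-08), and its receptor gene PLAUR was 0.56 higher. The matrilysin gene MMP7 was 0.81 and the cathepsin gene CTSD 0.51 higher, and so were the inhibitors SERPINE2 (0.47) and TIMP4 (0.41).

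Several inflammatory signals were higher in TUSC3 KO cells under TM. CXCL8 (interleukin 8), which draws neutrophils, read 6.67, 6.52 and 6.59 in control and 8.37, 8.30 and 8.41 in TUSC3 KO cells. The knockout arrays lay at least 1.5 units above the control arrays, and the difference was 1.77 on the log2 scale (SE 0.051, adjusted p = 2.17e-09), or 3.4-fold. CXCL1, a chemokine for the same receptor, read 7.23, 7.31 and 7.23 against 8.88, 8.74 and 8.96, with a difference of 1.60 on the log2 scale (SE 0.050, adjusted p = 2.91e-09). Both differences were of like size under DMSO, at 1.62 and 1.68, and the interaction was not called for either gene. CXCL2 and CXCL3 were 0.36 and 0.56 higher under TM beside 0.98 and 0.91 under DMSO, and for both the interaction was called lower (-0.62 and -0.35).

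IL1A, an alarmin cytokine, was dim in control cells, at 3.82, 3.78 and 3.72, and reached 5.64, 5.41 and 5.74 in TUSC3 KO cells. No control array came above 4 and no knockout array fell below 5. The difference was at least 1.82 on the log2 scale (SE 0.091, adjusted p = 1.07e-07), while under DMSO both groups lay below the median of all features. IL18, another cytokine of the interleukin 1 family, was 0.57 higher under TM beside 0.08 under DMSO, with an interaction of 0.50 (adjusted p = 0.00285). CCL5, which draws T cells, read 8.81, 8.76 and 8.71 in control and 9.70, 9.80 and 9.67 in TUSC3 KO cells, a difference of 0.97 on the log2 scale (SE 0.043, adjusted p = 4.08e-08). IL11 was lower (-0.51), and CCL2 was not called (0.15). In all, 14 of 33 chemokines and cytokines were higher and 2 lower under TM (median 0.14), and 12 were higher and 2 lower under DMSO.

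Many of these chemokine genes carry a binding sequence of NF-kappaB, the transcription factor of inflammation, in the promoter. The promoters of CXCL8 and CXCL1 are shown because these genes had the largest rises among the chemokines. The sequences are RefSeq's on GRCh38.p14, run from 250 bases before to 50 bases after the start of the gene, and have the motif GGAATTTCC in capitals.
CXCL8, chr4:73740319-73740618, plus strand: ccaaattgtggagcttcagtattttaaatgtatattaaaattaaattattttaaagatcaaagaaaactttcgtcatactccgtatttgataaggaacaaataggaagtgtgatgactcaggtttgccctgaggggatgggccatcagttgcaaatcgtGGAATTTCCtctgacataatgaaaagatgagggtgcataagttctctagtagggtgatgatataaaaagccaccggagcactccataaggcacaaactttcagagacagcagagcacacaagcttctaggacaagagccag
CXCL1, chr4:73869143-73869442, plus strand: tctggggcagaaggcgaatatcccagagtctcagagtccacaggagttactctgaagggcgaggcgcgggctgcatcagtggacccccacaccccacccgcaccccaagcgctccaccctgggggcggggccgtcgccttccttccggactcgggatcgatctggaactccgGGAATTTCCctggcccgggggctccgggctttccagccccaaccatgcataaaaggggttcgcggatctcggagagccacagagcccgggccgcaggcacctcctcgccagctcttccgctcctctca
The motif starts at -91 in CXCL8 and at -78 in CXCL1, counted from the start of the gene. It was searched on both strands of 27305 promoters of the same length, and 129 of them (0.472%) held it. A promoter was listed for 24 of the 33 chemokines and cytokines, and 8 of the 24 held the motif. Of these 8, CXCL8, CXCL1, CXCL5, CXCL3, CXCL2 and CXCL11 were higher under TM, and CXCL6 and CXCL10 were not called. Among all genes tested, the motif was in 69 of 15374 promoters (0.449%), in 18 of 1579 promoters of genes called higher (1.14%) and in 5 of 1393 promoters of genes called lower (0.359%). A match describes the letters of the promoter and says nothing of binding in these cells.

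The genes of the NF-kappaB pathway did not move as a block. Of 22 feedback and survival genes of the pathway, 8 were higher and 4 lower under TM (median -0.01), and the 4 became 2 without control replicate 2 under TM. The adhesion molecule gene ICAM1 was 0.47 higher, TNFAIP3, which encodes the A20 brake on the pathway, 0.41 higher, and the inhibitor genes NFKBIZ and NFKBIA 0.35 and 0.19 higher. NFKB2, the precursor of the p52 subunit, was lower under TM (-0.34) although it was higher under DMSO (0.21), with an interaction of -0.55 (adjusted p = 2.43e-04). RELA, the main activating subunit, was not called (0.00).

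Of 13 genes of the route to prostaglandin E2, a lipid mediator of inflammation, 5 were higher and 3 lower under TM, and the 3 became 1 without control replicate 1 or 3 under TM. PLA2G4A, the phospholipase that frees arachidonic acid, read 5.80, 5.77 and 5.91 in control and 7.03, 6.92 and 7.10 in TUSC3 KO cells. The next enzyme, the cyclooxygenase PTGS2, read 7.11, 7.30 and 7.26 against 8.45, 8.40 and 8.48. Neither gene had overlapping arrays, and the differences were 1.19 on the log2 scale (SE 0.072, adjusted p = 4.88e-07) and 1.22 on the log2 scale (SE 0.045, adjusted p = 9.03e-09). PTGES, the inducible synthase of the last step, was 0.85 higher, while of the other synthases PTGES2 was lower (-0.13, adjusted p = 0.0201) and PTGES3 was not called (-0.11). HPGD, the enzyme that inactivates the product, was 0.74 higher. The other lower members were PTGER2, a receptor of prostaglandin E2 (-0.24), and ABCC4, a transporter that exports it (-0.31). Both PLA2G4A and PTGS2 were lower with TM than with DMSO, by log2 differences of -2.49 and -2.22 in control cells and of -1.61 and -1.35 in TUSC3 KO cells. These values use the same TM arrays as the comparison of knockout and control.

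Interferon-stimulated genes, which defend cells against viral RNA, had the highest list median of those examined, 0.38. Of 38 such genes, 21 were higher and 2 lower under TM. The RNA sensor RIGI read 6.39, 6.30 and 6.42 in control and 7.62, 7.44 and 7.76 in TUSC3 KO cells. Its groups did not overlap, and the difference was 1.24 on the log2 scale (SE 0.075, adjusted p = 5.18e-07), or 2.36-fold. OASL, a relative of the oligoadenylate synthetases that binds RIG-I, read 7.09, 7.12 and 7.14 against 8.19, 8.27 and 8.16, a difference of 1.09 on the log2 scale (SE 0.033, adjusted p = 2.91e-09). The antiviral genes IFIT2, HERC5 and DDX60 were 1.05, 1.02 and 1.21 higher, and IFIT1 and SAMD9, dim in control cells, at least 1.01 and 1.20 higher. Under DMSO 23 of the 38 were higher and 0 lower, 19 were called higher under both treatments, and the interaction was called higher for 8 and lower for 1. OAS1, an oligoadenylate synthetase, had 0.77 under TM and 0.08 under DMSO (interaction 0.70, adjusted p = 1.52e-04). The list mean was 5.59 ± 0.01 (SD, n = 3 arrays) in control and 6.03 ± 0.03 in TUSC3 KO cells under TM, and 5.65 and 5.995 under DMSO. The 2 lower members were UBE2L6 (-0.21) and SP110 (-0.12), and neither was called without control replicate 3 under TM.

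Class I antigen presentation, which shows peptides to T cells, gave 9 higher and 1 lower of 19 genes. The lower gene was the immunoproteasome subunit PSMB9 (-0.14), whose call was lost when single arrays were left out. B2M, the light chain of class I molecules, was 0.51 higher, the peptide-trimming enzyme ERAP1 0.27 higher and the heavy chains HLA-B and HLA-E 0.21 and 0.19 higher. The peptide transporters TAP1 (-0.03) and TAP2 (-0.07) were not called. HLA genes resemble each other in sequence, so their probes may share signal.

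Genes of the ER were compared next, because TM acts there and TUSC3 works there. Of 43 genes for entry into the ER and transport to the Golgi, 29 were higher and 0 lower in TUSC3 KO cells under TM, which at 67.4% was the largest share of higher members among the lists, with a median of 0.19. KDELR3, which returns escaped ER proteins, read 6.97, 7.02 and 6.98 in control and 7.61, 7.56 and 7.79 in TUSC3 KO cells. Its arrays did not overlap, and the difference was 0.66 on the log2 scale (SE 0.056, adjusted p = 7.53e-06) beside 0.12, not called, under DMSO. Genes of the coat of vesicles that leave the ER were among the higher ones, with SEC24A at 0.47, SEC24D at 0.34, SEC23B at 0.34 and SEC16A at 0.32, and so were COPB2 (0.34) and ARCN1 (0.26) of the coat for return to the ER. Signal peptidase and translocon genes included SEC11C (0.43), SPCS3 (0.32), SSR1 (0.32) and SEC61A1 (0.20). The list mean was 8.44 ± 0.01 (SD, n = 3 arrays) in control and 8.64 ± 0.05 in TUSC3 KO cells under TM, and 8.001 and 8.13 under DMSO, where 18 of the members were higher and 0 lower. The interaction was called higher for 4 and lower for 1.

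The OST partners of TUSC3 gave 5 higher and 0 lower of 8 under TM. These were the catalytic subunit STT3A (0.27), the TUSC3 relative MAGT1 (0.27), RPN2 (0.19), STT3B (0.14) and RPN1 (0.11). The count was 3 without control replicate 1 or 2 or knockout replicate 3 under TM. MAGT1 read 10.001, 10.01 and 10.01 in control and 10.26, 10.26 and 10.31 in TUSC3 KO cells, without overlap. Building of the dolichol-linked sugar chain gave 3 higher and 0 lower of 18 genes, which became 1 without control replicate 1 or knockout replicate 3 under TM. Glycan trimming and the calnexin cycle gave 4 higher and 0 lower of 13, among them the mannosidase gene MAN1A2 (0.41, -0.04 under DMSO, interaction 0.45, adjusted p = 0.00155), and that count became 2 without control replicate 1 or knockout replicate 1 under TM.

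The sensors and main transcription factors of the UPR had a list median of 0.11, and the called ones were all higher. HSPA5, the chaperone BiP that UPR activity is often read from, had a mean of 12.83 in control and 12.81 in TUSC3 KO cells under TM and was not called. DDIT3 (CHOP), ATF4 and EIF2AK3 were not called either, at -0.01, 0.00 and 0.16. ERN1, CREB3, ATF6B, XBP1, ATF3 and ATF6 were higher, by 0.27, 0.38, 0.23, 0.18, 0.15 and 0.11. That made 6 of 14 higher (42.9%) and 0 lower, beside 8.99% and 7.97% of all genes. The count was 3 without control replicate 1 or 3 under TM, and XBP1 was among those lost in some of these fits. Chaperones and disulfide isomerases gave 13 higher and 0 lower of 26, or 9 to 14 higher with single TM arrays left out. Under DMSO 11 of them were higher and 2 lower, and the interaction was called higher for 2 and lower for 4. DNAJC3, an inhibitor of PERK with a chaperone role, was 0.37 higher. The ER oxidases ERO1B and ERO1A were 0.29 and 0.25 higher under TM but lower under DMSO (-0.36 and -0.16), with interactions of 0.65 and 0.41 (adjusted p = 8.96e-04 and 0.00218). In ERAD, 12 of 25 genes were higher and 1 lower, which was AUP1 (-0.23). They included the mannosidase relatives EDEM3 (0.50) and EDEM1 (0.31), the ubiquitin ligase SYVN1 (0.34) and HERPUD1, whose difference was 0.27 under TM and 0.50 under DMSO.

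Targets of ATF4 and CHOP, the arm of the UPR that adjusts amino acid supply, did not share the rise. Of 33 targets, 3 were higher (9.09%, near the 8.99% of all genes) and 6 lower (18.2%, beside 7.97%), with a median of -0.05. The markers ASNS, TRIB3 and CHAC1 were not called, at -0.05, 0.08 and 0.07. PHGDH, which starts serine synthesis, was -0.34 and MTHFD2, a mitochondrial folate enzyme, was -0.21 on the log2 scale, both lower. ALDH1L2 was 0.41 higher. Of 19 cytosolic tRNA synthetases 0 were higher and 5 lower under TM, while 8 were higher and 0 lower under DMSO, and the interaction was called lower for 8. FARSB, a subunit of the phenylalanine enzyme, had a difference of -0.41 and YARS1 of -0.21, against -0.06 and 0.14 under DMSO.

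**Figure D3:**
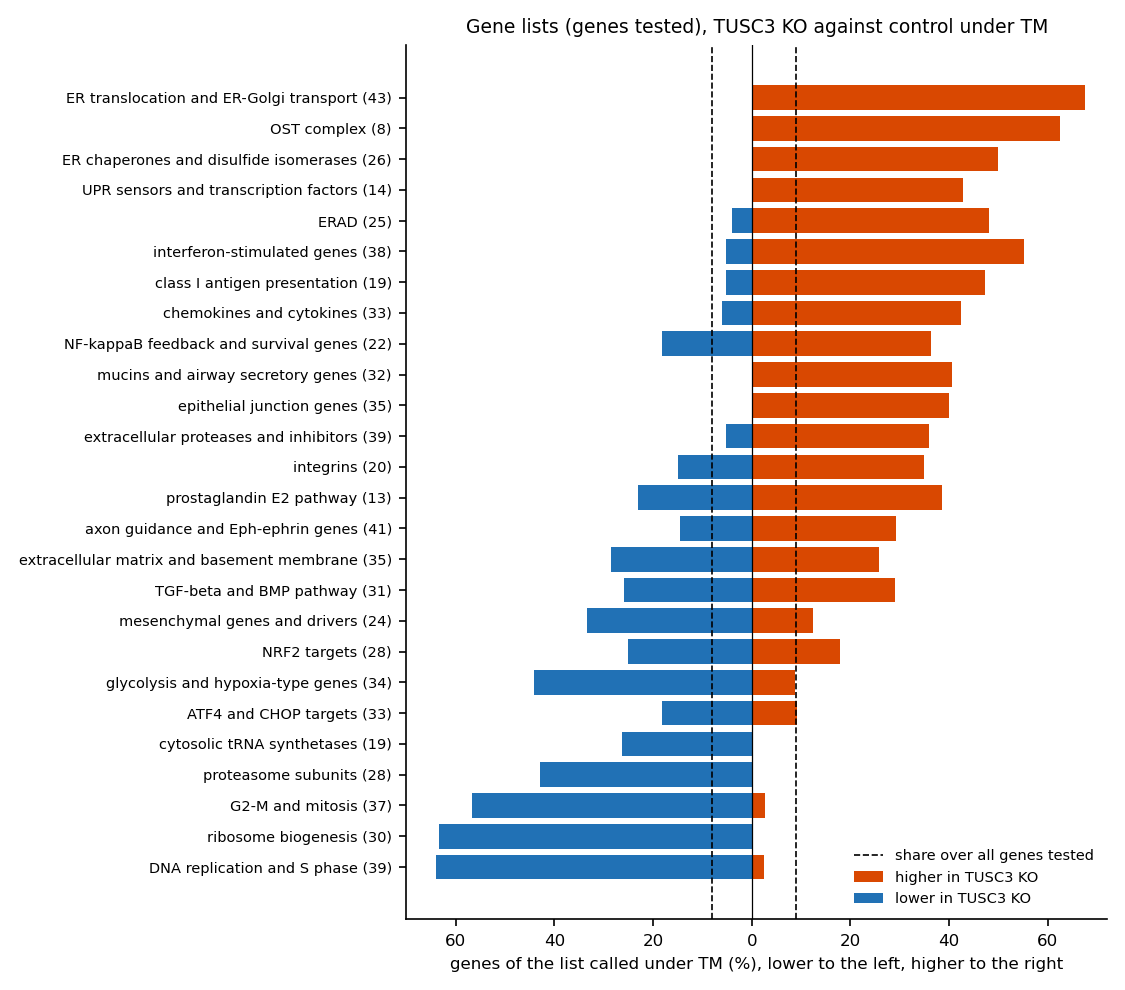
Share of members called higher (bars to the right) and lower (bars to the left) in TUSC3 KO against control cells under TM, in percent, for 26 gene lists. Dashed lines mark the share over all genes, 8.99% higher and 7.97% lower. ER transport reaches 67.4% higher with none lower, and DNA replication reaches 64.1% lower.

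Genes of the cell cycle were lower in the knockout under TM. Of 39 genes of DNA replication and S phase, 25 were lower and 1 higher, a median of -0.22. MCM6, part of the helicase that opens DNA, read 6.90, 6.86 and 6.94 in control and 6.12, 6.11 and 6.35 in TUSC3 KO cells. The groups were apart, with 1 knockout array nearer to the control arrays than the other pair, and the difference was -0.71 on the log2 scale (SE 0.058, adjusted p = 6.05e-06). The helicase partner GINS2 read 6.27, 6.37 and 6.30 against 5.64, 5.60 and 5.90, a difference of -0.60 on the log2 scale (SE 0.072, adjusted p = 1.22e-04), and RRM2, which supplies deoxynucleotides, read 7.50, 7.52 and 7.51 against 6.92, 7.06 and 7.03, a difference of -0.51 on the log2 scale (SE 0.037, adjusted p = 2.31e-06). MCM5, MCM7, MCM10 and MCM3 followed at -0.43, -0.41, -0.37 and -0.32, and thymidylate synthase, TYMS, at -0.36. The sliding clamp gene PCNA was not called (0.03). The 1 higher gene was CCNE2, whose means of 4.50 and 4.70 both lay below the median of all features, and its call was lost when single arrays were left out.

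Under DMSO the same list gave 8 higher and 1 lower, which was MCM6 (-0.33). The interaction was called lower for 26 of the 39 genes and higher for 0, beside 3.73% and 4.18% of all genes. The mean level over the list was 7.52 ± 0.04 (SD, n = 3 arrays) in control and 7.60 ± 0.03 in TUSC3 KO cells under DMSO, and 6.78 ± 0.01 and 6.55 ± 0.02 under TM. Both cell types thus read lower with TM than with DMSO, and the knockout arrays lay on the higher side under DMSO and on the lower side under TM.

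E2F factors switch on replication genes at the start of S phase. Their motif, TTTCCCGC or TTTGGCGC on either strand, was in the promoter of 19 of the 34 replication genes with a listed promoter (55.9%), against 631 of all 27305 promoters (2.31%). A kappaB match that runs on into CGC would hold an E2F match too. Among these 19 genes, 11 were lower under TM, 0 were higher and 8 were not called. Over the whole list, with or without the motif, 25 of 39 genes (64.1%) were lower. The motif stood in 74 of 1393 promoters of genes called lower (5.31%), in 33 of 1579 promoters of genes called higher (2.09%) and in 447 of all 15374 promoters of genes tested (2.91%). The promoters of GINS2 and of UHRF1, a DNA methylation factor of S phase that was lower under TM (-0.17), are shown as examples of a match close to the start. The motif, on the minus strand relative to the gene, is in capitals, and the sequences are again RefSeq's on GRCh38.p14, written along the strand of the gene.
GINS2, chr16:85688905-85689204, minus strand: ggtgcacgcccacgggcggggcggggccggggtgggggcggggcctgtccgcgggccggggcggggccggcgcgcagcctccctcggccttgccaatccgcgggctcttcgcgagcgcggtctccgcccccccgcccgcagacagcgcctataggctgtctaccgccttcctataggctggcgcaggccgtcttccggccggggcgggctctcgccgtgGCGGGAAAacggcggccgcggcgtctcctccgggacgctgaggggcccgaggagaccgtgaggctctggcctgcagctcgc
UHRF1, chr19:4909251-4909550, plus strand: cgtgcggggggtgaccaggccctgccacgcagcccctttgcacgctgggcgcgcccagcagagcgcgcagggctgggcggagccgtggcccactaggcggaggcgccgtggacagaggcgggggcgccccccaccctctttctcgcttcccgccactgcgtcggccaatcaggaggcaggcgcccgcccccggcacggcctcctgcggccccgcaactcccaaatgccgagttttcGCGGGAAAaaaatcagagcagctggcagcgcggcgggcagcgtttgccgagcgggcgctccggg
The match starts at -31 in GINS2 and at -14 in UHRF1. The letters alone do not show that a factor binds there.

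Mitotic genes gave 21 lower and 1 higher of 37 (median -0.21). The checkpoint kinase gene BUB1 read 7.74, 7.77 and 7.71 in control and 7.001, 7.06 and 7.21 in TUSC3 KO cells, and CDC20, which activates the anaphase-promoting complex, read 8.48, 8.48 and 8.44 against 7.87, 8.03 and 7.89. Neither gene had overlapping arrays, and the differences were -0.65 on the log2 scale (SE 0.051, adjusted p = 4.61e-06) and -0.53 on the log2 scale (SE 0.047, adjusted p = 1.03e-05). CDC20 was not called under DMSO (0.14), where BUB1 was lower too (-0.33). The mitotic kinases AURKB and PLK1 and the cyclin CCNB1 had differences of -0.43, -0.34 and -0.31, while the proliferation marker MKI67 was not called (-0.07). The higher member was the phosphatase gene CDC25B (0.21). The list mean was 7.59 ± 0.02 (SD, n = 3 arrays) in control and 7.37 ± 0.07 in TUSC3 KO cells under TM, and 8.26 and 8.21 under DMSO. Under DMSO 2 of the members were higher and 5 lower, and the interaction was called lower for 10 and higher for 0.

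Ribosome biogenesis showed a similar turn. Of 30 genes 19 were lower and 0 higher under TM (median -0.15), whereas 9 were higher and 0 lower under DMSO, and the interaction was called lower for 20 and higher for 0. The nucleolar protein gene NCL read 9.62, 9.68 and 9.66 in control and 9.33, 9.23 and 9.36 in TUSC3 KO cells, and WDR43, a factor of the small subunit, read 8.88, 9.01 and 8.99 against 8.56, 8.50 and 8.72. Both were apart without overlap, at -0.35 on the log2 scale (SE 0.033, adjusted p = 1.85e-05) and -0.36 on the log2 scale (SE 0.052, adjusted p = 4.75e-04). BOP1 and the methyltransferase FBL had differences of -0.35 and -0.22, and the polymerase I subunit POLR1A of -0.27. The list mean was 8.12 ± 0.01 (SD, n = 3 arrays) in control and 7.94 ± 0.03 in TUSC3 KO cells under TM, and 8.002 and 8.11 under DMSO. MYC, a driver of ribosome genes and of growth, was lower under TM (-0.30) and not called under DMSO (0.03). Proteasome subunits gave 12 lower and 0 higher of 28. The largest differences among them were small, with PSMD14 at -0.35 and PSMD1 at -0.29, and the count was 7 when arrays were centred on their median.

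**Figure D4:**
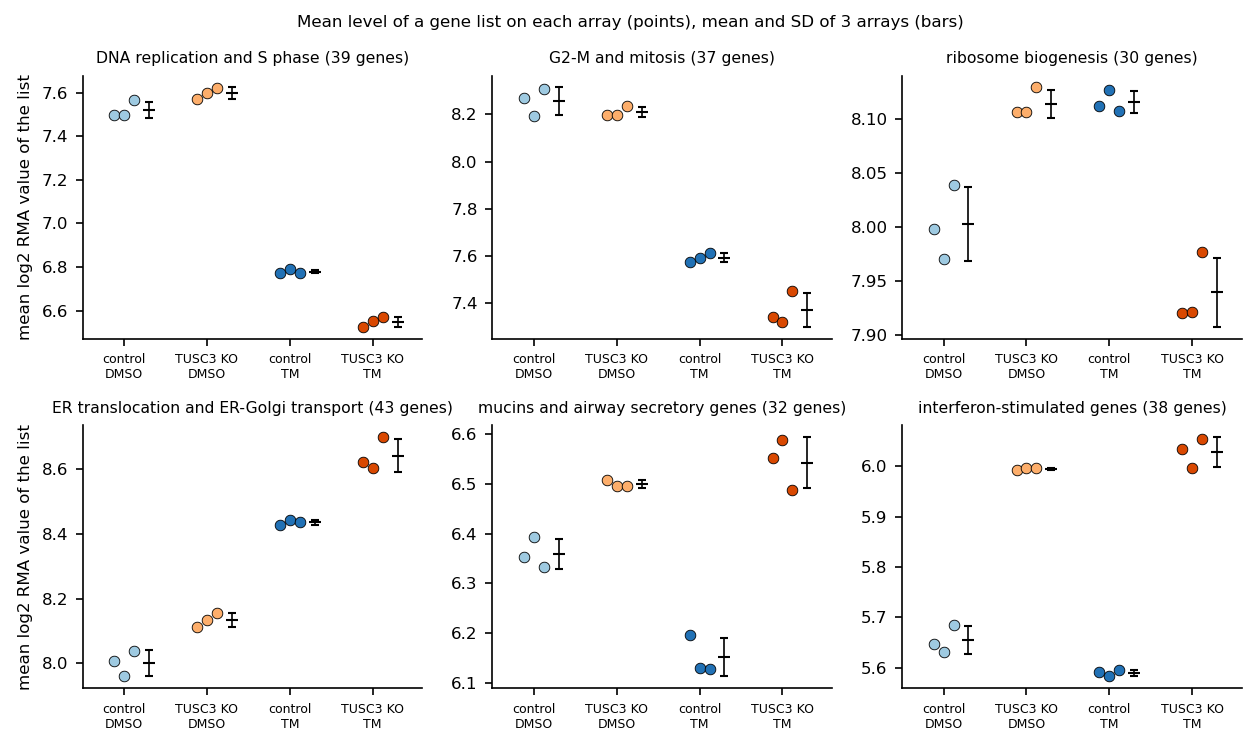
Mean log2 level over the members of 6 gene lists (y axis) on each of the 12 arrays, in the 4 groups. Replication genes sit at 7.499 to 7.62 under DMSO and at 6.53 to 6.79 under TM, lowest in TUSC3 KO cells, while ER transport genes are highest in TUSC3 KO cells under TM.

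Among the genes with the largest falls was BCAT1, which transfers the amino group of branched-chain amino acids. It read 7.53, 7.53 and 7.54 in control cells, nearly the same on each array, and 5.77, 5.71 and 5.92 in TUSC3 KO cells. The difference was -1.74 on the log2 scale (SE 0.057, adjusted p = 3.89e-09), 3.33-fold lower, beside -0.71 under DMSO. CTPS1, which makes CTP for nucleic acids and lipids, read 9.22, 9.26 and 9.27 in control and 8.27, 8.25 and 8.37 in TUSC3 KO cells. Its groups lay about 1 unit apart, with a difference of -0.95 on the log2 scale (SE 0.036, adjusted p = 9.91e-09), against -0.03 under DMSO and an interaction of -0.93 (adjusted p = 3.46e-06). Of 16 genes of CPS1 and arginine metabolism, 2 were higher and 2 lower under TM. That is 12.5% each way, beside 8.99% and 7.97% of all genes, and 1 was lower when arrays were centred on their median. The lower genes were the polyamine enzymes ODC1 and SRM (-0.12 and -0.20), which were higher under DMSO (0.24 and 0.37). The higher genes were ASS1, which makes argininosuccinate (0.24), and CPS1, the mitochondrial enzyme that makes carbamoyl phosphate (1.58). CPS1 read 8.05, 8.09 and 8.09 in control and 9.66, 9.58 and 9.73 in TUSC3 KO cells.

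Of 34 genes of glycolysis and hypoxia 15 were lower and 3 higher under TM (median -0.11). The glucose transporter SLC2A3, the regulator PFKFB3, hexokinase HK2 and enolase ENO1 had differences of -0.44, -0.36, -0.30 and -0.27. The 3 higher members were TXNIP, PDK4 and VEGFA (0.10). TXNIP, a brake on glucose uptake and on thioredoxin, read 5.92, 5.85 and 6.06 in control and 7.51, 7.44 and 7.38 in TUSC3 KO cells, a difference of 1.50 on the log2 scale (SE 0.053, adjusted p = 7.39e-09). PDK4, the kinase that turns pyruvate away from the mitochondrial acetyl-CoA route, read 4.95, 5.0001 and 5.02 against 6.06, 6.10 and 6.19. Every knockout array was about 1 unit higher, with a difference of 1.13 on the log2 scale (SE 0.039, adjusted p = 5.86e-09). TM and DMSO levels of PDK4 differed by -3.54 in control and -2.35 in TUSC3 KO cells, so that PDK4 was lower with TM in both, while those of TXNIP differed by 1.58 and 2.97, higher with TM in both.

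Lipid genes were mixed, with 7 higher (25%) and 2 lower (7.14%) of 28, beside 8.99% and 7.97% of all genes. STARD4, a cholesterol carrier, SC5D, an enzyme of cholesterol synthesis, and the sterol sensors INSIG1 and INSIG2 were 0.60, 0.48, 0.32 and 0.37 higher, while fatty acid synthase, FASN, was lower (-0.22) and had been higher under DMSO (0.18). NRF2 targets of the antioxidant response gave 5 higher (17.9%) and 7 lower (25%) of 28. CYP4F11 (-0.48) led the lower side, and SLC7A11, the cystine transporter (0.25), was among the higher ones. Of 24 genes of the BCL2 family and death receptors, 4 were higher (16.7%) and 3 lower (12.5%), and PMAIP1, the death-promoting NOXA, was 0.58 higher. Autophagy and lysosome genes gave 7 higher (23.3%) and 4 lower (13.3%) of 30, with the phosphoinositide-binding WIPI1 at 0.73 and the receptor SQSTM1 at -0.22.

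Growth factor pathways also split within themselves. In the IGF axis, 4 of 17 genes were higher and 5 lower. IGFBP1, which binds insulin-like growth factors and responds to ER stress, read 8.08, 8.09 and 7.95 in control and 9.26, 9.31 and 9.28 in TUSC3 KO cells. The groups did not overlap, and the difference was 1.25 on the log2 scale (SE 0.052, adjusted p = 2.37e-08) under TM but -0.53 under DMSO. The other binding proteins IGFBP4, IGFBP7 and IGFBP3 were lower, at -0.73, -0.68 and -0.52, beside -0.84, -0.75 and -0.54 under DMSO, and the adaptor IRS2 was 0.67 higher. In the TGF-beta and BMP pathway, 9 of 31 genes were higher and 8 lower. The receptor TGFBR2 read 8.24, 8.32 and 8.23 in control and 9.11, 9.10 and 9.14 in TUSC3 KO cells, a difference of 0.85 on the log2 scale (SE 0.040, adjusted p = 7.26e-08) beside 0.12, not called, under DMSO. The ligand TGFB2 was 0.59 higher and TGFB1 was lower (-0.41), and the BMP-responsive genes ID2 and ID3 were lower (-0.81 and -0.52) together with the matrix protein TGFBI (-0.82).

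Among EGFR family genes, the ligand TGFA was 0.70 and BTC 0.56 higher, and the ERBB3 ligand NRG1 was lower (-0.57, 0.08 under DMSO). Of 14 members 5 were higher and 2 lower, and the 5 became 2 or 3 whenever any of the 6 TM arrays was left out. ERK feedback and immediate early genes gave 6 higher and 9 lower of 28, with the phosphatase DUSP4 at 0.49 and the AP-1 subunit FOSL1 at -0.36. Wnt and Hippo genes gave 7 higher (23.3%) and 3 lower (10%) of 30, beside 8.99% and 7.97% of all genes. The 3 became 1 without control replicate 2 or knockout replicate 1 under TM. The Wnt receptor regulators RNF43 and LGR4 were 0.64 and 0.39 higher. Axon guidance and Eph genes gave 12 higher and 6 lower of 41, or 7 higher without control replicate 2 under TM. The secreted guidance factor SEMA3A read 7.07, 7.11 and 7.18 in control and 8.10, 8.03 and 8.13 in TUSC3 KO cells, a difference of 0.96 on the log2 scale (SE 0.055, adjusted p = 3.00e-07) beside 0.15, not called, under DMSO. ROBO1 and its ligand SLIT3 were lower, at -0.80 and -0.68.

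The largest falls were in genes that were lower under DMSO too. Genes of the Y chromosome made up many of them. RPS4Y1 was at -1.95, and TTTY15, DDX3Y, USP9Y, TXLNGY and UTY were at -2.22, -1.87, -1.58, -1.55 and -1.37 or lower. Of the list of 10 Y chromosome genes, 8 were lower under DMSO as well, with a median of -1.19 there. F2RL2, a thrombin receptor of the protease-activated family, read 8.53, 8.47 and 8.58 in control and 6.05, 6.02 and 6.25 in TUSC3 KO cells. The gap was over 2 units on every pair of arrays, and the difference was -2.42 on the log2 scale (SE 0.093, adjusted p = 1.33e-08), 5.35-fold lower. UPK1B, a tetraspanin of the urothelial surface, read 6.86, 6.86 and 6.86 against 4.66, 4.56 and 4.27, the knockout arrays lying below the median of all features, which bounds the difference at -2.36 or lower. The control values of UPK1B were equal in every digit, so they do not measure a spread. GPC6, a heparan sulfate proteoglycan of the cell surface, read 6.17, 6.17 and 6.21 against 4.27, 4.44 and 4.16, with a difference of -1.90 or lower (adjusted p = 6.65e-08). ANKRD30A read 6.47, 6.67 and 6.79 in control and 5.08, 4.94 and 5.40 in TUSC3 KO cells, -1.51 on the log2 scale (SE 0.12, adjusted p = 6.49e-06), beside -2.94 or lower under DMSO. All 27 genes that were more than 2-fold lower under TM were also called lower under DMSO. Of the 79 that were more than 2-fold higher, 65 were higher, 2 lower and 12 not called under DMSO.

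The same contrast under DMSO uses none of these 6 arrays, although it rests on the same clone and the same estimate of spread. Of the 2015 genes higher under TM, 136 were higher under DMSO with a higher interaction, 572 were higher under DMSO with no interaction called, 402 were not called under DMSO with a higher interaction, and 775 had neither call. Another 41 were higher under both with a lower interaction, and 89 were lower under DMSO. Of the 1786 genes lower under TM, 496 were lower under DMSO with no interaction called, 364 were not called under DMSO with a lower interaction, 722 had neither call and 97 were higher under DMSO. CP, the copper-carrying ceruloplasmin, was among those that turned. It read 5.21, 5.20 and 5.24 in control and 5.84, 5.81 and 5.70 in TUSC3 KO cells under TM, a difference of 0.57 on the log2 scale (SE 0.056, adjusted p = 2.92e-05), while under DMSO the difference was -1.29, and the interaction was 1.85 (adjusted p = 5.90e-07). TFPI, an inhibitor of the start of blood clotting, read 7.77, 7.74 and 7.79 against 7.98, 7.94 and 8.11 under TM. The knockout arrays were just above the control arrays, by 0.24 on the log2 scale (SE 0.060, adjusted p = 0.0157), and the call was lost without control replicate 2 or knockout replicate 3 under TM, whereas the DMSO difference was -1.10. In the other direction CDH6, a cadherin of kidney epithelium, was at least 0.79 higher under TM and at least 1.93 higher under DMSO. Control cells lay below the median of all features under both treatments, so the size of its interaction is not bounded, while the TUSC3 KO level was 4.87 under TM and differed from that under DMSO by -1.66.

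**Figure D5:**
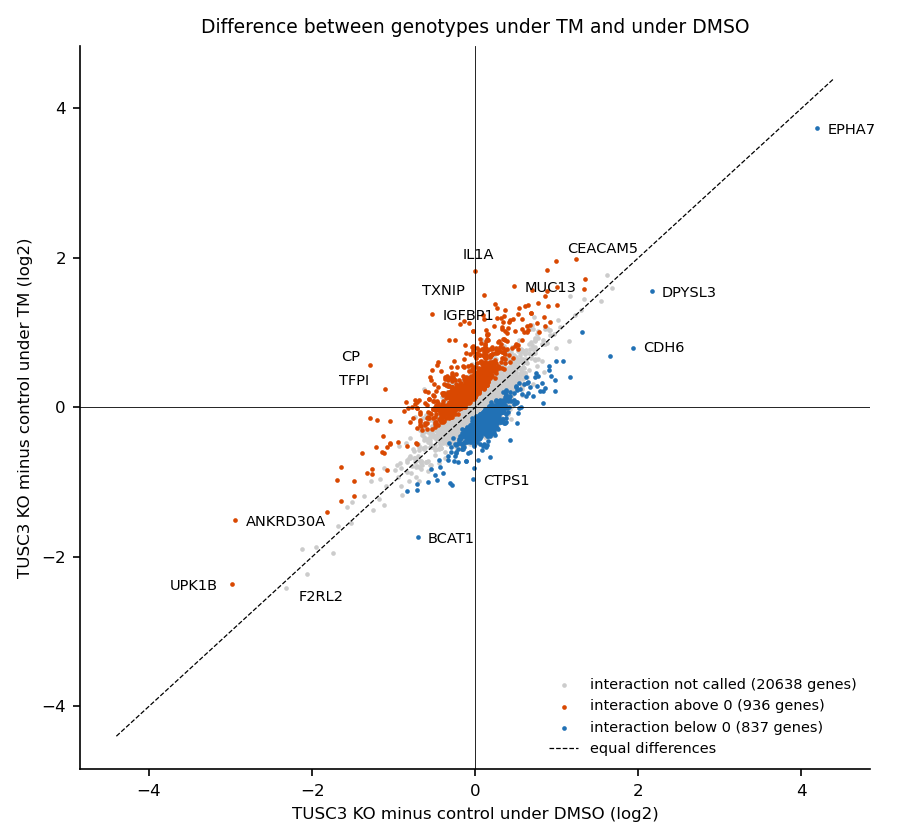
Log2 difference of the genotypes (TUSC3 KO minus control) under DMSO (x axis) and under TM (y axis) for 22411 genes, coloured by whether the interaction was called higher (936 genes), lower (837) or not (20638). EPHA7 and F2RL2 lie far out along both axes, IL1A, TXNIP and PDK4 lie high on the y axis near 0 on the x axis, and IGFBP1, CP and TFPI lie left of 0 and above it.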

How the data were processed

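The 12 arrays (GeneChip Human Transcriptome Array 2.0) formed 4 groups of 3 and held RNA from A549 cells. The authors' deposited values are log2 levels made with RMA, and the sources used here do not name the RMA version or the build of the annotation. RMA normalizes the arrays to each other, so a change shared by most genes may not show. The deposited values still differed in their array medians, from 4.73 to 4.80 over features and from 5.76 to 5.85 over genes tested. Of 70523 features, 23781 had 1 symbol, 1543 had several and 45199 had none. Symbols were brought to their current form (306 changed), and each of 22411 symbols was tested with its brightest feature (528 symbols had several). The files hold no detection calls, and 3 arrays a group limit the precision. Any pair of arrays had exactly equal values for 1.49% to 4.77% of features. The control arrays under TM were tied in this way for UPK1B, UBE2L6 and SQLE, for example. SQLE is 1 of the 2 lipid genes called lower under TM (-0.16). Such ties lower the measured spread, and their cause was not tested. No column was without a sample.

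Contrasts of group means were fitted over the 12 arrays by limma 3.58.1 (R 4.3.3) with lmFit and eBayes and a variance trend. P-values were adjusted by Benjamini-Hochberg over the 22411 genes. The contrasts were TUSC3 KO against control under TM and under DMSO, their interaction, and TM against DMSO in each cell type. The step was tested on simulated data, where 6 of 22211 unchanged genes were called. Of 50 genes each with a true log2 change of 0.25, 0.5, 1 and 2, 15, 39, 50 and 50 were called. The simulation gave a gene the same spread in every group, whereas the TUSC3 KO arrays under TM had the largest spread. Members, gene lists and tests were chosen with earlier results of these data known, so list counts are descriptions. Genes were picked for naming by rule. The rule took TUSC3, the 12 largest rises and falls under TM and the 6 largest interactions each way. Rises, falls and interactions were taken among genes above the median of all features. It also took up to 4 and 3 members of each list on its larger and smaller side. Not every gene so picked is described above, and CACNA2D1 and RAB39B are examples left out. Further genes named, such as those not called, CEACAM6, AGR2, TFF1 and MCM7, were chosen after their values were seen. Promoters were matched by symbol to RefSeq's table on GRCh38.p14, which listed 27305, and 15374 genes tested had one. Tables and figures used Python 3.11.15, numpy 2.4.6, pandas 2.3.3, scipy 1.17.1 and matplotlib 3.10.9. Alternatives were quantile normalization again, centring on the median, no variance trend, a fit of only the 6 TM arrays, a block for the replicate number, averaged features, dim genes left out, the methods' t-test and each array left out.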

Additional observations from a re-analysis of the deposited data

Results flagged for a closer look

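For 10 named genes the difference of TUSC3 KO and control cells departed between TM and DMSO by more than 1 on the log2 scale, by limma's interaction term at an adjusted p under 0.05. The interaction, the difference under TM minus the difference under DMSO, was 1.85 for CP, 1.83 for IL1A, 1.77 for IGFBP1, 1.44 for ANKRD30A, 1.39 for TXNIP, 1.35 for TFPI, 1.20 for PDK4 and 1.15 for MUC13. It was -1.14 for CDH6 and -1.03 for BCAT1. CP, IGFBP1 and TFPI were lower under DMSO and higher under TM. IL1A, TXNIP and PDK4 were not called under DMSO. ANKRD30A and BCAT1 were lower and MUC13 and CDH6 higher under both treatments, by different amounts. Levels below the median of all features make some of these values uncertain. In CDH6 the control cells lay below it under both treatments, so its interaction is a fitted value from a pair of lower bounds and gives no bound. IL1A lay below it in both groups under DMSO and in control cells under TM, and TXNIP in both groups under DMSO, so their interactions are fitted values too. ANKRD30A lay below it in knockout cells under DMSO. The genes were picked for the size of these values, which are given as a description.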

How the results depend on the processing

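Under TM, 2015 genes were higher and 1786 lower. Leaving out each array in turn gave 1582 to 2132 and 1307 to 1891. A fit of only the 6 TM arrays gave 1539 and 1209, and centring on the median gave 2116 and 1287. With the methods' t-test after Benjamini-Hochberg adjustment 881 and 678 passed, and 2322 and 2257 without adjustment. Beyond 2-fold there were 79 and 27 under TM, 22 and 42 under DMSO, and 23 and 2 for the interaction. The interaction was called lower for 837 genes, for 534 with arrays centred on their median and for 532 to 969 with each array left out, the lowest without knockout replicate 3 under DMSO. Leaving out control replicate 2 under TM gave 546, knockout replicate 2 under DMSO gave 556, and control replicate 1 under DMSO gave a number between these. The cause was not tested. Centring made 2116 of 3403 calls under TM higher ones (62.2%) in place of 2015 of 3801, and took the median of all genes from -0.02 to 0.01.

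Replicate numbers do not say that arrays pair. Of 18 same-numbered pairs of arrays 9 deviated together at a correlation over 0.1 (range -0.10 to 0.39), and 7 of 12 arrays lay closest to their own number. Every pair of replicate 3 arrays was above 0.1, from 0.13 to 0.34, while pairs of replicate 1 and of replicate 2 arrays fell on both sides of 0. What the replicate 3 arrays share was not tested. With the replicate number as a block, 2293 genes were higher and 2144 lower under TM, and 3752 of the 3801 calls were shared.

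TUSC3 stayed lower under every setting run, from -1.43 to -1.29 with arrays left out. No result on the 240 named genes reversed under TM. The t-test lost the call of 89 of them, and the other settings lost the call of 36 in at least 1 setting. Of 114 interactions called for named genes, 26 lost their call in at least 1 setting, and 22 did so with arrays centred on the median. Interaction counts of the lists were not rerun under other settings. List counts with arrays left out or under other settings were computed after seeing the data. Replication genes lower under TM numbered 17 to 26 outside the t-test, which gave 7 of the 25. ER transport genes higher numbered 24 to 31, and 10 with the t-test. With 3 arrays a group and no call of signal over background, differences near the smallest one called, 0.07, and levels under the median of all features are the least certain.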
